A study of Mus musculus with 3 samples.

Results

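Transcripts of 39 genes of DNA replication and nucleotide supply were followed in MigA9 cells, a mouse line transformed by the homeobox factor Hoxa9, treated or not with DB818, a compound that binds the minor groove of DNA and is known for blocking the binding of HOXA9 to its sites. The members were taken by gene symbol, or by an older synonym, from a list of replication proteins and nucleotide enzymes written from general knowledge. The choice used no measured value as its rule, although earlier results of these data were known when it was made. All 39 were found among the 27389 genes of the array and all 39 were among the 10956 genes measured on every array. DB818-treated cells received 2.5 µM for 6, 12 or 24 h, and untreated cells were the comparison at each time. All cells grew in medium with GM-CSF-conditioned supernatant, so both groups are cytokine-supported cultures of 1 transformed line. On each of 3 two-colour Agilent arrays, 1 per time, RNA of treated cells carried Cy5 and RNA of untreated cells carried Cy3. Whether the untreated RNA was 1 preparation or a culture matched to each time was not stated in the labels.

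Replication origins are licensed in G1 when the origin recognition complex, with Cdc6 and Cdt1, loads the MCM helicase onto DNA. Cdc7 kinase, Mcm10, Cdc45 and the GINS complex then turn the loaded helicase into a moving fork, where polymerases copy both strands on the sliding clamp Pcna that the replication factor C loader places. Ribonucleotide reductase, thymidylate synthase and thymidine kinase supply the deoxynucleotides, and many of these genes are textbook targets of E2F transcription factors at entry into S phase.

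Values are log2 ratios, treated over untreated, after loess normalisation within each array, and levels are normalised channel intensities, which compare samples for 1 gene and not genes with each other. The mean of the 3 times was tested against 0 with limma's moderated test, adjusted by Benjamini-Hochberg over all 10956 genes, and "rose" and "fell" mean an adjusted p under 0.05. The 3 times stand in for replicates, so these p-values measure only the spread between times, which may be technical. They leave out the spread of untreated cells and any dye bias, since the dyes were never swapped. Between 11447 and 11565 genes were measured per array, and repeated spots of 1 probe differed with an SD of 0.034 to 0.051. Of the myeloid progenitor markers, 10 of 12 were measured on all arrays, of which 3 rose and 5 fell. None of the 5 B cell, 5 T cell, 6 erythroid or 4 fibroblast markers was, with Cd4 and Epor measured on 1 array each. In bulk RNA, a different number of cells in S phase and a different amount of RNA per cell cannot be told apart.

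The promoters of 4 members with E2F-form letters upstream are shown first, from Pola1 (rose), Mcm6 and Mcm7 (fell) and Mcm5 (neither). They do not stand for all members that moved. Pcna, Orc2, Pold2, Rfc4, Rfc1 and Tk1 held no E2F form, and the matches of Lig1 lay after the start. Of the 39 members, 32 had an entry among the RefSeq promoters (build GRCm38.p6, 250 bases before to 50 after the start). Mcm4, Gins1, Gins2, Gmnn, Prim2, Rfc2 and Pole had none. The E2F forms searched, on both strands, were TTTGGCGC, TTTCCCGC, TTTCGCGC, TTTGCCGC and TTTGGCGG. The 250 bases upstream of 4 members follow, 5′ to 3′ on the gene's strand, with every E2F-form match in capitals in either orientation, so that overlapping matches run together.
Pola1 (rose; chrX:93632156-93632405, minus strand): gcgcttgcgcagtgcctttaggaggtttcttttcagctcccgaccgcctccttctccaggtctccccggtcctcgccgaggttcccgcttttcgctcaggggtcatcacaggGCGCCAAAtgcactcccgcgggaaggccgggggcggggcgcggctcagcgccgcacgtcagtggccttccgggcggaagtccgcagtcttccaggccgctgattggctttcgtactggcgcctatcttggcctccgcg
Mcm6 (fell; chr1:128359706-128359955, minus strand): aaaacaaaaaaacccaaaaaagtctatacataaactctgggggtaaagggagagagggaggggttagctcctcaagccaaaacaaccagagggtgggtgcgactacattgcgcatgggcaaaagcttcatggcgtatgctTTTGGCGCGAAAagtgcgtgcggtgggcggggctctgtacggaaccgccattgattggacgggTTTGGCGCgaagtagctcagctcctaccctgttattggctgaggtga
Mcm7 (fell; chr5:138171884-138172133, minus strand, the more distal of its starts): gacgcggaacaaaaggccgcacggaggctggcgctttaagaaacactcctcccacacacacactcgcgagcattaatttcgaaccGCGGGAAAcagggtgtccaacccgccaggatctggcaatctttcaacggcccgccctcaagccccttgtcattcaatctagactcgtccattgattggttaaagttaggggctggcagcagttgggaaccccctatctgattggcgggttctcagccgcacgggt
Mcm5 (neither; chr8:75109259-75109508, plus strand): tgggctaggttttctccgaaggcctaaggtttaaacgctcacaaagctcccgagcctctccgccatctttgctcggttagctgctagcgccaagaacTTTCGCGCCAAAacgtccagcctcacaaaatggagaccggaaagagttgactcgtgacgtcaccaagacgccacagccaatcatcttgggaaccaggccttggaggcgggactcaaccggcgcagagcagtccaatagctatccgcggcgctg

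An E2F form stood in 13 of the 32 member promoters (40.6%), against 859 of 27025 genes with a RefSeq promoter (3.18%). It was in 2 of the 6 promoters of members that rose (Pola1 and Rfc3), in 3 of the 5 of members that fell (Mcm6, Mcm7 and Lig1), and in 8 of the 21 of members not past the threshold. The CCAAT box, bound by NF-Y, was in 21 of 32 (65.6%), against 41.1% of all genes. The CHR letters TTTGAA were in 5 of 32 (15.6%), against 20.2%, and TGATTTAC, a HOXA9 form, in 0 of 32, against 0.659%. These are matches of letters in a short window and say nothing of binding.

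Over the 3 times, 9 of 39 members rose and 6 fell (23.1 and 15.4%), with all changes small. Among all measured genes, 20.1% rose and 7.86% fell, 27.9% in all. The 9 that rose were the polymerase subunits Pola1 and Pold2, the clamp Pcna, the loader subunits Rfc3 and Rfc4, the origin factor Orc2, the licensing inhibitor Gmnn, the helicase subunit Mcm4 and the GINS subunit Gins2. The 6 that fell were the helicase subunits Mcm6 and Mcm7, the loader subunits Rfc1 and Rfc2, the ligase Lig1 and the thymidine kinase Tk1. Each of these 15 had the same sign on all 3 arrays, which the call itself nearly fixes. Over all 39 members, 24 had 1 sign on all arrays (61.5%), against 62.1% of all measured genes. The mean ratios of the members ran from -0.24 (Mcm6) to 0.25 (Pola1), with a median of 0.01, against a median of 0.03 for all genes. The median size of the mean ratio was 0.07 for the members and 0.07 for all measured genes. Without the 12 h array, limma called 0 members in either direction, with 10 higher and 6 lower at an unadjusted p under 0.05. Of all genes, 3.73% were then called higher and 1.31% lower, with 18.6 and 7.25% past the unadjusted p. From the scanner's own processed signals, 1 rose (Pcna) and 1 fell (Tk1), where 5.39 and 5.84% of all genes did. Centring each array without loess turned 7 of the 15 signs.

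**Figure D1:**
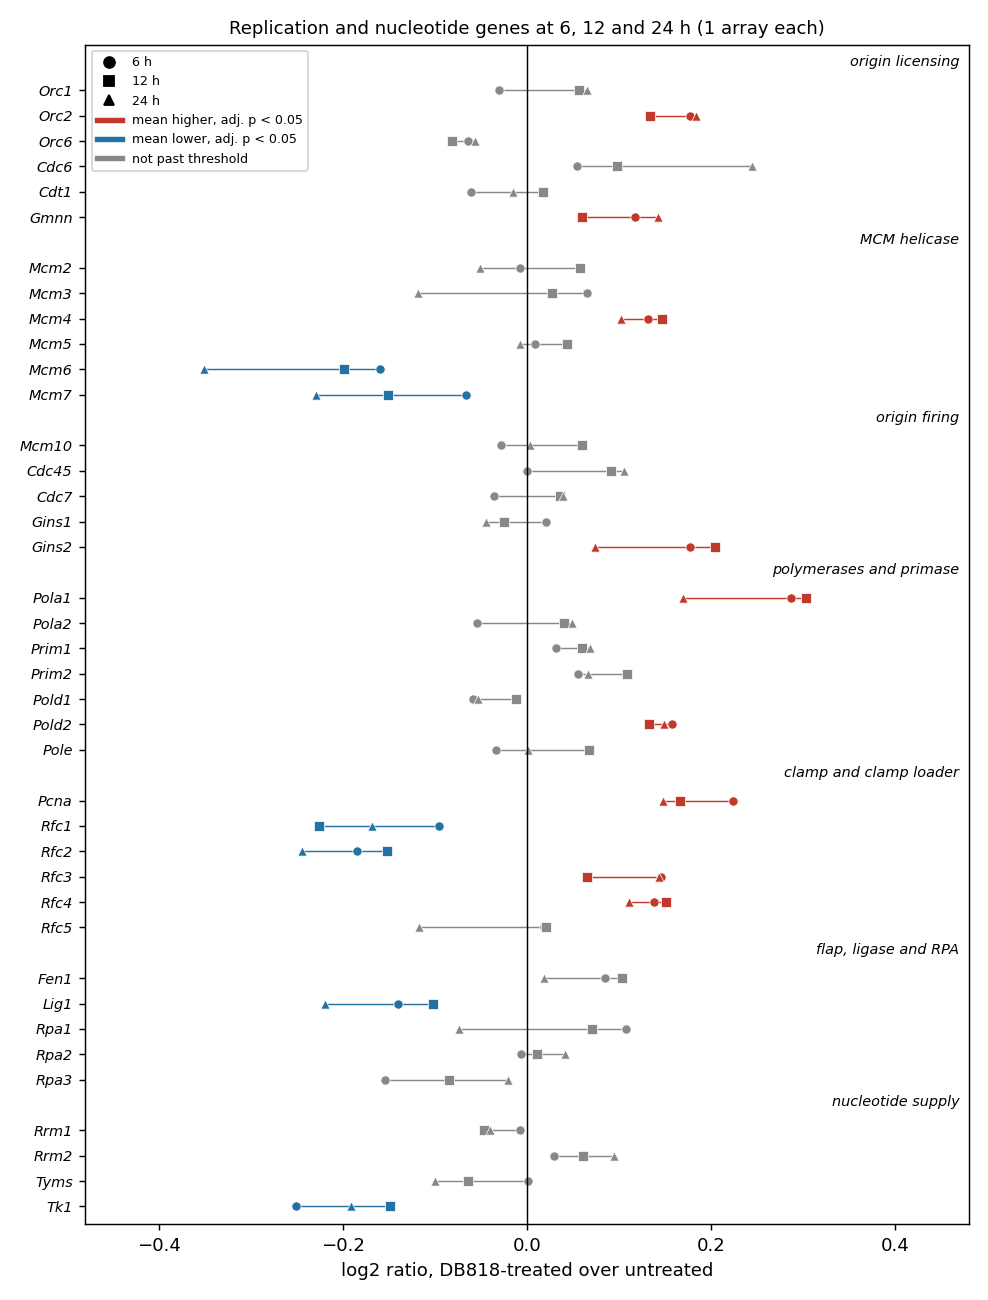
Log2 ratio of DB818-treated over untreated cells (horizontal axis) for each of the 39 members, grouped by role, with a circle, square and triangle for the 6, 12 and 24 h arrays and a line over their range. Members that rose are red, those that fell blue and the rest grey, after loess. The lowest triangle is Mcm6 at -0.35, and centring without loess turned the signs of all 6 blue members and of Rfc3.

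At single times, with 1 array each, at least 1.1-fold was used as a description with no test. At 6 h 7 members were that much higher (17.6% of all genes) and 5 lower (7.22% of all genes). At 12 h 5 were higher and 5 lower, where 15.8 and 6.71% of all genes were. At 24 h 7 were higher and 6 lower, where 19.6 and 9.07% of all genes were.

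Of the 6 licensing genes, 2 rose and none fell, with a median mean ratio of 0.07. Of all genes, 20.1% rose and 7.86% fell, with a median of 0.03. Orc2, a core subunit of the origin recognition complex, had intensities of 548, 574 and 514 in treated cells at 6, 12 and 24 h, against 484, 523 and 452 in untreated cells. It was higher in treated cells on every array, although the treated value at 24 h lay below the untreated value at 12 h. Its mean ratio was 0.17 ± 0.03 (limma adjusted p = 0.0107). All values after ± are limma's moderated SE, in which the spread over the 3 arrays is drawn toward that of all genes. Gmnn, geminin, binds Cdt1 and blocks a second round of licensing. Its intensities were 8679, 8517 and 8202 in treated cells, against 7998, 8174 and 7433 in untreated cells, and no treated value was as low as an untreated one. The mean ratio was 0.11 ± 0.03 (limma adjusted p = 0.0456), the closest to the threshold of the 15. Here and below, statements on overlap compare levels between arrays, and the share of all genes without overlap was not counted.

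Cdc6, the ATPase that joins the origin complex to load the helicase, missed the threshold with a mean ratio of 0.13 ± 0.04 (limma adjusted p = 0.0573). Its intensities were 223, 234 and 252 in treated cells at 6, 12 and 24 h, against 214, 219 and 212 in untreated cells. The treated values were all above the untreated ones, and the gap was widest at 24 h, where the ratio was 0.24. Its 2 probes averaged 0.18 and 0.08. Orc1, the ATPase subunit of the origin complex, averaged 0.03, Orc6, its smallest subunit, -0.07, and Cdt1, the partner of Cdc6 in loading, -0.02.

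Among the 6 MCM helicase subunits, 2 fell, 1 rose and 3 were not past the threshold, where 7.86% of all genes fell and 20.1% rose. Differences between subunits were not tested. After centring without loess the means of all 6 were above 0, from 0.28 (Mcm2) to 0.58 (Mcm4). Mcm6 had the lowest mean ratio of the 39 members after loess with a gene's probes averaged. Tk1 was lower than Mcm6 from the scanner's processed signals (-0.23 and -0.18), with plain background subtraction (-0.21 each) and without the 24 h array (-0.20 and -0.18), and Rfc2 was lowest with the brightest probe (-0.28). The intensities of Mcm6 were 17409, 17950 and 16422 in treated cells at 6, 12 and 24 h, against 19448, 20596 and 20942 in untreated cells. Every treated value was below every untreated value. The ratios were -0.16, -0.20 and -0.35, with a mean of -0.24 ± 0.04 (limma adjusted p = 0.0107), and treated cells had 0.784 times the untreated level at 24 h. Mcm7 had 4015, 4106 and 3672 in treated cells, against 4204, 4558 and 4303 in untreated cells, again with no overlap. Its ratios were -0.07, -0.15 and -0.23 and its mean -0.15 ± 0.04 (limma adjusted p = 0.0303). Mcm4, which with Mcm6 and Mcm7 forms the part of the ring that can unwind DNA in vitro, had the other sign after loess. It had 5454, 6104 and 5703 in treated cells, against 4980, 5512 and 5312 in untreated cells. It was higher on each array, while the treated value at 6 h lay below the untreated value at 12 h, and its mean was 0.13 ± 0.03 (limma adjusted p = 0.0221). Mcm2, Mcm3 and Mcm5, the subunits at the gate side of the ring, averaged 0.00, -0.01 and 0.01. In Mcm3 the ratio was 0.06 at 6 h, 0.03 at 12 h and -0.12 at 24 h.

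Among the firing factors, 1 of 5 rose and none fell, where 20.1% of all genes rose and 7.86% fell. Gins2, a subunit of the GINS complex that joins Cdc45 to the helicase, had 433, 465 and 443 in treated cells, against 383, 404 and 421 in untreated cells. Treated values were all above untreated ones, with the smallest gap at 24 h. Its mean ratio was 0.15 ± 0.04 (limma adjusted p = 0.0232). Its partner Gins1 averaged -0.02, with 2 probes of opposite sign at 0.03 and -0.06. Cdc45, the helicase cofactor, averaged 0.07 (limma adjusted p = 0.181), Mcm10, which helps activate the helicase, 0.01, and Cdc7, the kinase that phosphorylates it, 0.01.

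Of the 7 polymerase and primase genes, 2 rose (28.6%) and none fell, with a median mean ratio of 0.05. Of all genes, 20.1% rose and 7.86% fell, with a median of 0.03. Pola1, the catalytic subunit of polymerase alpha, which starts each new strand with primase, had the highest mean ratio of all members after loess, while Pcna had it after centring without loess (0.68). The intensities of Pola1 were 591, 582 and 586 in treated cells at 6, 12 and 24 h, against 485, 472 and 521 in untreated cells. The treated values were nearly level and all above the untreated ones. The ratios were 0.29, 0.30 and 0.17 and the mean 0.25 ± 0.04 (limma adjusted p = 0.00629), a 1.19-fold difference. The other members of its complex had smaller mean ratios, a difference that was not tested, with Pola2, the accessory subunit, at 0.01, Prim1, the catalytic primase subunit, at 0.05 and Prim2, the large primase subunit, at 0.08, none past the threshold. Pold2, an accessory subunit of the lagging-strand polymerase delta, had 501, 494 and 450 in treated cells, against 449, 451 and 406 in untreated cells. It was higher on every array by similar amounts, 0.13 to 0.16, while the treated value at 24 h was just below the highest untreated value. Its mean was 0.15 ± 0.03 (limma adjusted p = 0.0137). Pold1, the catalytic subunit of the same enzyme, averaged -0.04, and Pole, the catalytic subunit of the leading-strand polymerase, 0.01.

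Of the 6 clamp and loader genes, 3 rose and 2 fell (50 and 33.3%), where 20.1 and 7.86% of all genes did. No role was tested as a set. Pcna, the sliding clamp that holds polymerases on DNA, had 8608, 8985 and 8171 in treated cells, against 7372, 8007 and 7376 in untreated cells. All treated values were above the highest untreated one. Its mean ratio was 0.18 ± 0.03 (limma adjusted p = 0.00971). Within the loader both directions were called after loess, and no difference between subunits was tested. Rfc4 had 2090, 2295 and 2266 in treated cells, against 1898, 2066 and 2098 in untreated cells, and Rfc3 had 113, 125 and 110, against 102, 119 and 99.7. Both were higher on each array, with ranges that overlapped across arrays, and both encode small core subunits of the loader. Their means were 0.13 ± 0.03 (limma adjusted p = 0.0186) for Rfc4 and 0.12 ± 0.03 (limma adjusted p = 0.035) for Rfc3. Rfc1, the large subunit specific to the replication loader, had 1021, 975 and 988 in treated cells, against 1091, 1141 and 1111 in untreated cells, with no overlap. Its mean was -0.16 ± 0.04 (limma adjusted p = 0.0177). Rfc2, another small subunit, had 2265, 2436 and 2282 in treated cells, against 2574, 2708 and 2702 in untreated cells. It too had no overlap, and its mean was -0.19 ± 0.03 (limma adjusted p = 0.00849), from 2 probes at -0.11 and -0.28. Rfc5, the remaining small subunit, averaged -0.03 and had ratios of 0.02, 0.02 and -0.12.

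Among the flap, ligase and single-strand binding genes, 1 of 5 fell and none rose, where 7.86% of all genes fell and 20.1% rose. Lig1, the ligase that seals Okazaki fragments, had 2869, 3241 and 2878 in treated cells, against 3162, 3479 and 3352 in untreated cells. It was lower on each array, although the treated value at 12 h lay above the untreated value at 6 h. Its mean was -0.15 ± 0.03 (limma adjusted p = 0.0194). Fen1, the flap nuclease that trims those fragments before ligation, averaged 0.07 (limma adjusted p = 0.145). The subunits of replication protein A, which coats single-stranded DNA, averaged 0.03 for Rpa1, 0.02 for Rpa2 and -0.09 for Rpa3, none past the threshold. The 2 probes of Rpa2 disagreed in sign, at -0.07 and 0.10.

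Of the 4 nucleotide supply genes, Tk1 fell and none rose, where 7.86% of all genes fell and 20.1% rose. Tk1, the S-phase thymidine kinase of the salvage route, had 1235, 1331 and 1209 in treated cells at 6, 12 and 24 h, against 1470, 1475 and 1380 in untreated cells. All treated values were below the lowest untreated one. The ratios were -0.25, -0.15 and -0.19 and the mean -0.20 ± 0.03 (limma adjusted p = 0.00866). Ribonucleotide reductase averaged -0.03 for its large subunit Rrm1 and 0.06 for its small subunit Rrm2. Tyms, thymidylate synthase of the de novo route, averaged -0.05 (limma adjusted p = 0.246).

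**Figure D2:**
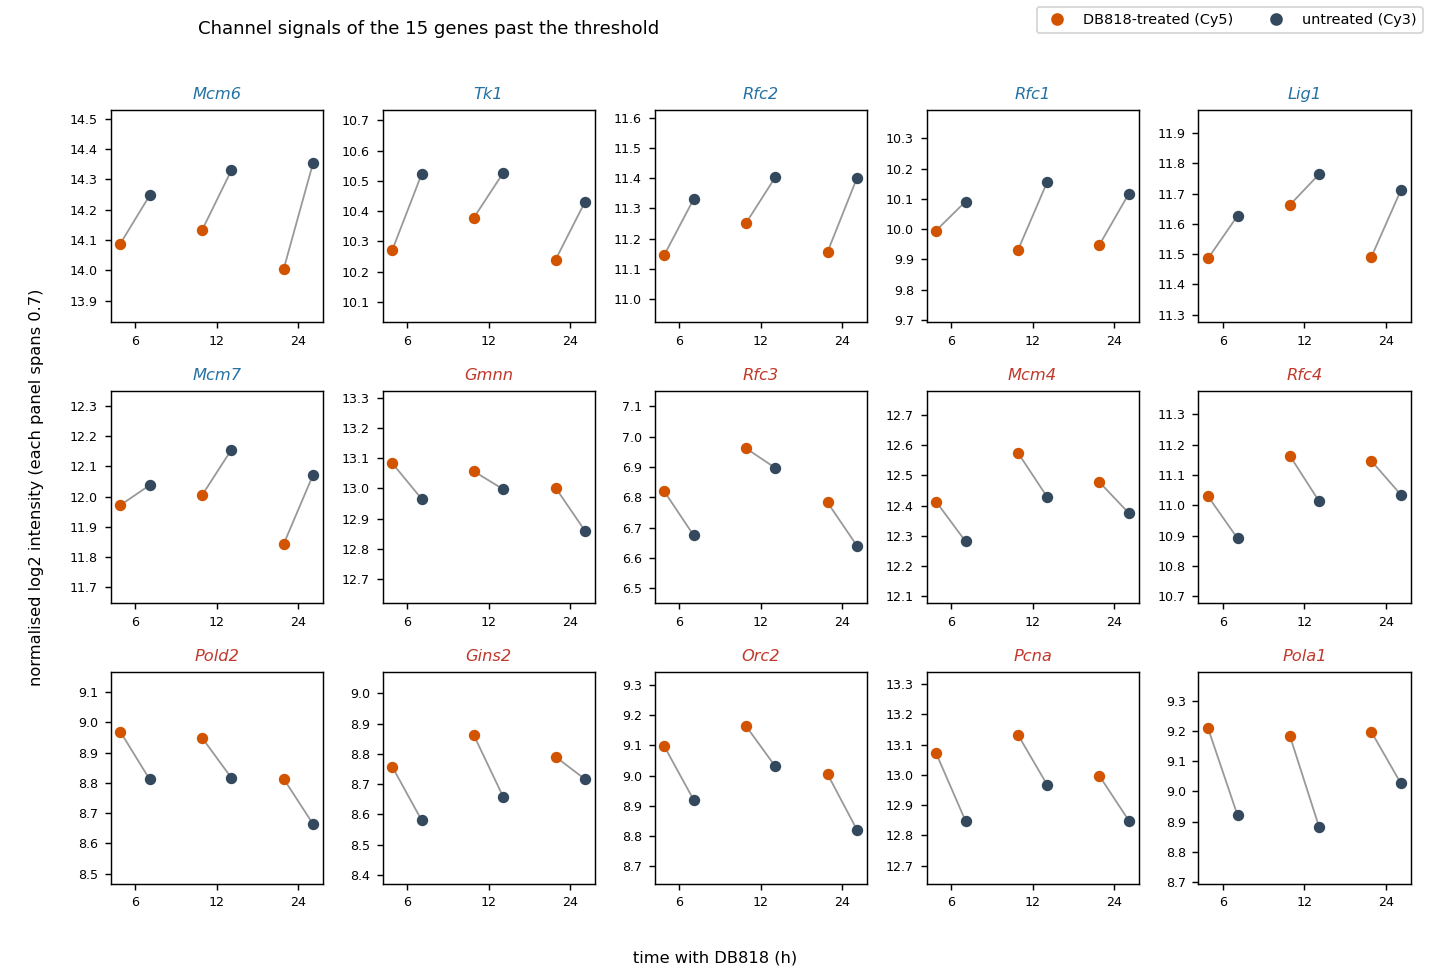
Normalised log2 intensity (vertical axes, each spanning 0.7) of the 15 members past the threshold at 6, 12 and 24 h, with treated cells (orange, Cy5) left of untreated cells (dark, Cy3) and a line joining the channels of each array. Blue titles are the 6 genes that fell, with treated points below untreated ones on all 3 arrays after loess, and red titles the 9 that rose, with treated points above. Without loess the mean of those 6 and of Rfc3 turned.

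Change with time was tested as the slope of the ratio per doubling of time, in which a bias common to the arrays cancels. No member passed (limma, smallest adjusted p = 0.153), against 334 of all genes (3.05%). At an unadjusted p under 0.05 there were 5 members of 39, against 19.9% of all genes. These were Cdc6 with a slope of 0.10 ± 0.03 per doubling, Mcm6 with -0.10 ± 0.03, Mcm3 with -0.09 ± 0.03, Rpa1 with -0.09 ± 0.03 and Mcm7 with -0.08 ± 0.03. By role, the slopes of all 6 helicase subunits and all 6 clamp and loader genes were below 0, and those of all 6 licensing genes above 0. The remaining roles were mixed. Slopes below and above 0 numbered 2 and 3 for firing, 2 and 5 for polymerases and primase, 3 and 2 for flap, ligase and RPA, and 2 and 2 for nucleotide supply. Of all 10956 genes, 5494 had a slope below 0. These signs describe single values that did not pass, and no role was tested. The median slope was 0.00 over the members and 0.00 over all genes.

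The channels also moved between arrays. In untreated cells, 29 of 39 members were higher at 12 h than at 6 h, with a median difference of 0.05, against 5731 of 10949 genes with a median of 0.00. At 24 h 10 of 39 were higher than at 12 h, with a median of -0.05, against 4920 of 10949 genes with a median of -0.01. In treated cells the medians were 0.06 and -0.10, against -0.003 and -0.008 for all genes. The untreated range of a member over the 3 arrays had a median of 0.13, against 0.12 for all genes. The median size of a mean ratio was 0.07 for the members and for all genes, but a range and a mean are unlike measures. Every test rests on ratios within an array. The statements on overlap of treated and untreated values compare levels between arrays instead, and the share of all genes without overlap was not counted. Whether times differ in culture state or in array was not tested.

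Other genes of the same machinery, from lists written from general knowledge, were set beside the members. Of 41 other fork and origin genes, all measured, 15 rose and 0 fell in limma's test, with a median mean ratio of 0.07, and 20 were higher and 0 lower at an unadjusted p under 0.05. These are 36.6 and 0% of the list, where 20.1 and 7.86% of all genes rose and fell, and 29.6 and 12.9% were past the unadjusted p. The 4 with the largest means were Rif1, which controls origin timing, at 0.37 ± 0.04 (limma adjusted p = 0.00484), Wdhd1, which ties polymerase alpha to the helicase, at 0.27 ± 0.03, Top2a, the topoisomerase of proliferating cells, at 0.25 ± 0.03, and Timeless, of the fork protection complex, at 0.22 ± 0.03. Rif1 had ratios of 0.49, 0.28 and 0.33 at 6, 12 and 24 h, so its largest value was the earliest. Without the 12 h array 4 of the 41 rose, without the 24 h array 8 did, and from the scanner's processed signals 3 did, where 3.73, 13.7 and 5.39% of all genes rose. Centring without loess gave 23 higher and 10 lower, where 37.9% of all genes were higher and 40.9% lower.

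Of 39 other nucleotide genes, 35 were measured on all arrays, 10 rose and 1 fell. These are 28.6 and 2.86% of those measured, where 20.1 and 7.86% of all genes rose and fell. The symbols Ctps1, Adss2 and Hprt1 matched no probe, and Rrm2b was not measured on all arrays. The largest means were those of Prps1, which makes the sugar donor of purines and pyrimidines, at 0.25 ± 0.03 (limma adjusted p = 0.00467), Dguok, the mitochondrial deoxyguanosine kinase, at 0.22 ± 0.03, Mthfd2, a mitochondrial folate enzyme, at 0.22 ± 0.05, and Nme1, a nucleoside diphosphate kinase, at 0.20 ± 0.03. Shmt2, the serine-glycine enzyme of mitochondrial one-carbon supply, was the gene that fell, at -0.14 ± 0.03 (limma adjusted p = 0.0163), and was named after its value was seen. Its sign turned with centring without loess. Without the 12 h array limma called 2 of the nucleotide genes higher and 0 lower (7 and 1 at an unadjusted p under 0.05), and without the 24 h array 5 rose. Of all genes, 3.73% rose and 1.31% fell without the 12 h array (18.6 and 7.25% unadjusted). Without the 24 h array 13.7% of all genes rose. The scanner's processed signals gave 3 higher and 1 lower, and centring without loess 21 higher and 8 lower. Of all genes, 5.39% were higher and 5.84% lower from the processed signals, and 37.9 and 40.9% after centring.

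Of 23 E2F regulators, the factors, pocket proteins and cyclins that set S-phase transcription, 6 rose and 0 fell in limma's test, with a median mean ratio of 0.03, and 8 were higher and 2 lower at an unadjusted p under 0.05. The 6 are 26.1% of the list, near the 20.1% of all genes that rose, and the median of all genes was also 0.03. E2f1, an activating member, averaged 0.25 ± 0.04 (limma adjusted p = 0.00755), with ratios of 0.18, 0.34 and 0.23. E2f7, a repressing member, averaged 0.24 ± 0.03 (limma adjusted p = 0.00474), Cdc25a, the phosphatase that activates Cdk2, 0.24 ± 0.05, and E2f6, another repressing member, 0.15 ± 0.04. Without the 12 h array 1 of the 23 rose, and from the scanner's processed signals limma called 0 higher and 1 lower (5 and 3 at an unadjusted p under 0.05). Of all genes, 3.73% rose without the 12 h array. From the processed signals 5.39% of all genes rose and 5.84% fell (17.3 and 18.3% unadjusted). Centring without loess gave 8 higher and 9 lower, where 37.9 and 40.9% of all genes were. The call of E2f6 was lost under 6 of 14 alternatives. The proliferation marker Mki67 averaged 0.06 ± 0.04 (limma adjusted p = 0.303).

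**Figure D3:**
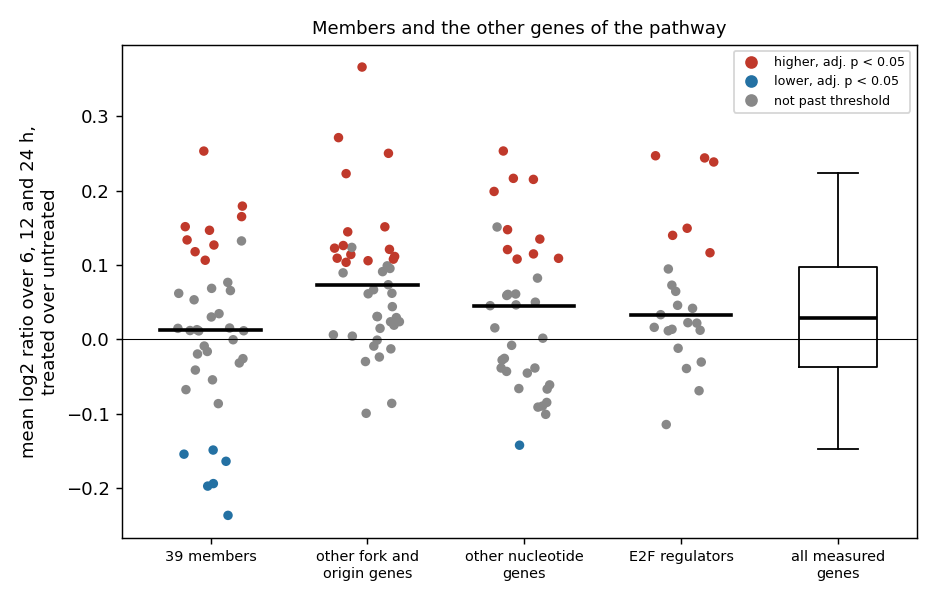
Mean log2 ratio, treated over untreated, over 6, 12 and 24 h (vertical axis) for each measured gene of the members and of the other 3 lists, with a bar at the median, beside a box of all measured genes (box 25 to 75%, whiskers 5 to 95%). The 39 members spread to both sides with 9 red (higher) and 6 blue (lower) points, while the other fork and origin genes have 15 red and 0 blue. The lists were not matched for brightness. Centring without loess gave 31 higher and 4 lower members, and 23 higher and 10 lower fork and origin genes. Of all genes, 37.9% were then higher and 40.9% lower.

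The members were mostly bright on the array, and the share of genes that fell was higher among bright genes. Of the 39 members, 34 lay above the median brightness of all measured genes, and 29 lay in the brightest 3 of 10 equal brightness bins. Among the 3287 genes of those bins, 20.1% rose and 13.2% fell, and of the 29 members there 6 rose and 6 fell. Those 12 hold all members that fell, and the members that rose from outside were Gins2, Pold2 and Rfc3. In the brightest bin, which held 15 members, 14.4% of all genes rose and 18.9% fell. In bins 4 to 7, counted from the dimmest, 23.5 to 29.1% rose and 4.29 to 6.67% fell. Those bins held Rif1, Wdhd1, Top2a and Timeless, the other fork and origin genes with the largest means. The part of brightness in the ratios of the members and of the other lists was not tested.

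**Figure D4:**
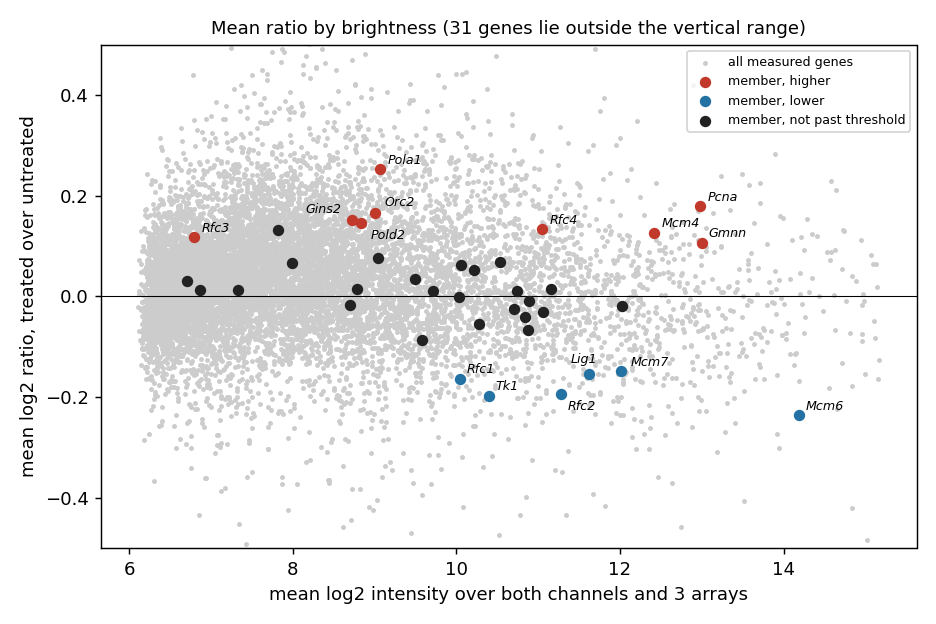
Mean log2 ratio, treated over untreated (vertical axis), against mean log2 intensity over both channels and the 3 arrays (horizontal axis) for all 10956 measured genes (grey) and the 39 members (coloured), with 31 genes outside the vertical range. Mcm6, the member with the lowest ratio after loess, lies at the bright end. Of the members that rose (red, loess), Rfc3 is the dimmest.

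The sign of 7 of the 15 called members differed between loess and plain centring. Centring each array on its median without loess left a trend in the median ratio from -0.67 in the dimmest of the 10 bins to 0.41 in the brightest. With it Mcm6 averaged 0.35, Mcm7 0.28, Lig1 0.24, Rfc2 0.18, Rfc1 0.11 and Tk1 0.11, and Rfc3 averaged -0.28. Set against the median of genes of like brightness in that same centring, all 15 had the sign they had after loess, but some were much smaller. Mcm6 was then -0.06, in place of -0.24 after loess, Rfc3 0.03 in place of 0.12 and Rfc4 0.08 in place of 0.13, and the lowest members were Rfc2 at -0.23, Tk1 at -0.19 and Rfc1 at -0.18. From the scanner's processed signals all 15 also had that sign, although 13 no longer passed the threshold. The median ratio of the bins there ran only from -0.04 to 0.01. Subtracting a bin's median is itself a correction by brightness, as loess is, and the processed signals are nearly level across brightness as well. Neither is thus an independent check of the signs that plain centring turned.

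**Figure D5:**
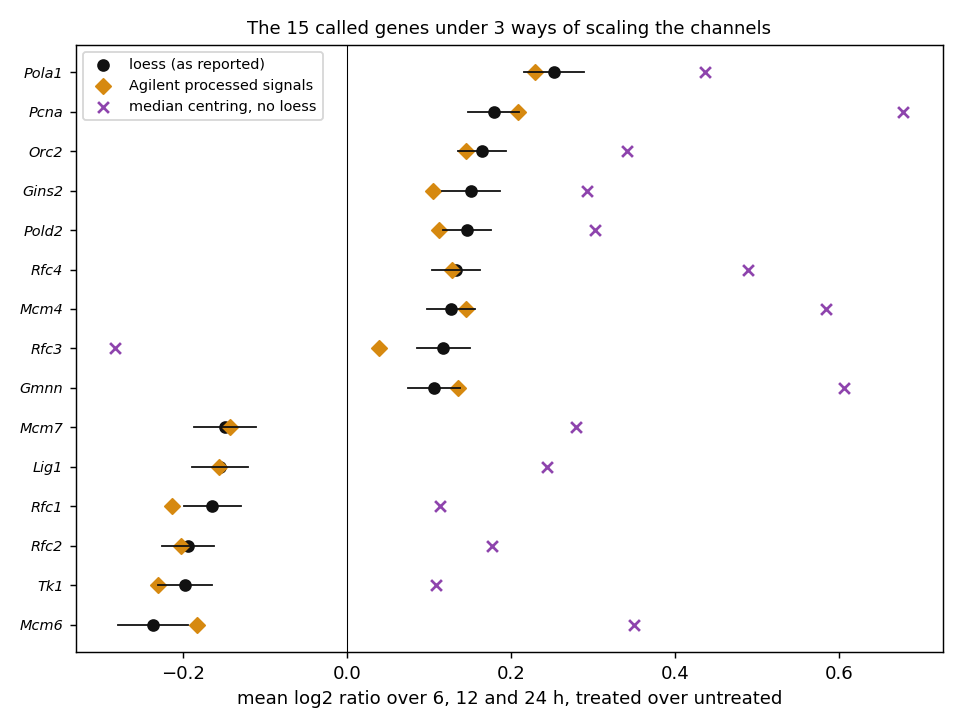
Mean log2 ratio, treated over untreated (horizontal axis), of the 15 called members after loess (black, with limma's moderated SE), from the scanner's processed signals (orange diamonds) and after centring without loess (purple crosses). Diamonds keep the side of 0 of the black points for all 15, and crosses lie on the other side for the 6 genes that fell and for Rfc3.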

How the data were processed

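RNA of DB818-treated (Cy5) and untreated (Cy3) MigA9 cells was compared on 3 arrays, 1 each at 6, 12 and 24 h. Agilent Feature Extraction 9.1.3.1 is named in the submitters' processing notes, and the deposited scanner files hold foreground and background intensity per spot. The deposited value table holds a log10 ratio, treated over untreated, per the file headers, whose largest difference from the scanner files' own ratio was 0.

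Background was corrected by normexp, offset 50, and loess was applied within arrays, in limma 3.58.1 under R 4.3.3 (version 1.17.8 of data.table), without control and outlier spots. A gene's ratio is the mean of its unsaturated probes that were well above background in Cy5 and Cy3. The 55 member probes were matched through a RefSeq table by accession (42), symbol (10) or synonym (3), older names such as Recc1 for Rfc1 and Ris2 for Cdt1 included, and 47 or 48 were measured per array. Channel levels were made comparable between arrays with Aquantile. The offset draws ratios of dim genes toward 1, and precision is limited by the number of arrays.

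The mean over times (2 residual degrees of freedom, prior 4.82) and the slope on log2 time (1 residual, prior 8.37) were tested with limma over 10956 genes. Members, lists and tests were chosen with earlier results of these data known. All 39 members are given. Of the other lists, up to 4 genes past the threshold with the largest means are named. On simulated data of 10956 genes, 10756 of them with no change, the test of the mean recovered 8.96% of genes planted at 1.1-fold. It recovered 92.5% at 1.25-fold and 100% at 1.5-fold, with 8 false calls. With so few changed genes the adjusted threshold was stricter than in the real data, where 27.9% of genes were called. These shares therefore do not give the power of the test in the real data, where changes of 1.1-fold can still be missed. The slope test recovered 32.8% of genes planted at 1.1-fold per doubling of time, which is not the same change as 1.1-fold in the mean. Alternatives covered background, normalisation, probe filters, array weights, models, thresholds and leaving out each array. Motif counts and plots used Python 3.11.15, pandas 2.3.3, numpy 2.4.6 and matplotlib 3.10.9.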

Additional observations from a re-analysis of the deposited data

Results flagged for a closer look

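Atic, the enzyme of the last steps of purine synthesis, differed between times in the test of the slope, with -0.16 ± 0.03 per doubling of time (limma adjusted p = 0.034). It was named after its value was seen. Its intensities were 586, 548 and 450 in treated cells at 6, 12 and 24 h, against 501, 531 and 479 in untreated cells, and its ratios were 0.23, 0.05 and -0.09. The slope kept its sign under the 9 alternatives, between -0.18 and -0.16, and no longer passed under 4 of them (highest adjusted p = 0.246, from the scanner's processed signals).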

How the results depend on the processing

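No paired analysis was possible because there are no replicate numbers to use as a block, beyond the within-array pairing of treated and untreated RNA that every reported ratio already uses. Members that rose (9) numbered 1 from the scanner's processed signals, 31 after centring without loess, 15 with array weights (0.424, 4.4 and 0.536 at 6, 12 and 24 h) and 2 at an adjusted p of 0.01. Members that fell (6) numbered 1 from the processed signals and 2 at 0.01. Leaving out each array in turn gave 0 to 8 higher and 0 to 6 lower, the lowest without the 12 h array. All genes higher (2199) numbered 590 from the processed signals, 4154 after centring, 4188 with weights, 409 without the 12 h array, 3582 with time in the model and 675 at 0.01. All genes lower (861) numbered 4476 after centring, 2125 with weights, 143 without the 12 h array, 573 without the 24 h array, 1601 with time in the model, 228 at 0.01 and 1302 at 0.10. Slope counts ran from 0 to 447 higher and 0 to 286 lower for all genes over 9 settings, with 0 members in each. Centring moved members at least 1.1-fold higher to 31, 29 and 30 at 6, 12 and 24 h and lower at 12 h to 3. It turned the mean of Orc1 to -0.42, Orc6 to 0.28, Cdt1 to 0.41, Mcm2 to 0.28, Mcm3 to 0.33, Mcm6 to 0.35, Mcm7 to 0.28, Cdc7 to -0.39, Gins1 to 0.11, Pola2 to -0.16, Pold1 to 0.30, Rfc1 to 0.11, Rfc2 to 0.18, Rfc3 to -0.28, Rfc5 to 0.30, Lig1 to 0.24, Rpa3 to 0.15, Rrm1 to 0.33, Tk1 to 0.11 and Shmt2 to 0.20. The mean of Tyms turned as well, to 0.15, without passing the threshold. Centring leaves the trend with brightness in, and its part in each turned sign was not tested. Over all alternatives and members, the call on the mean stayed as it was in 465 comparisons and was no longer past the threshold in 40. Members with no call passed anew with the same sign in 22 comparisons and with the other sign in 12, and a called sign turned in 7. The 15 calls all held with saturated probes kept, array weights, time in the model and an intensity trend, and Gmnn was lost in the most settings (8 of 14). One alternative, using only probes measured on all arrays, was chosen after seeing the data, as were the settings for the other lists.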
